A study of Mus musculus with 18 samples.

Results

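The genes described here encode the proteins of the cytosolic ribosome and were compared between mice of 2 inbred strains, C57BL/6J and DBA/2J. They were chosen by symbol in the platform annotation (Rpl or Rps followed by a number, Rplp0 to Rplp2, Rpsa and Fau, without the Rps6k kinases), not by their ratios. The rule found 69 genes on 77 spots among 20218 features on the arrays, 26 of the small subunit and 43 of the large subunit, and 8 of them had 2 spots. All 69 were tested, since no filter on dim spots was used.

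RNA of whole brain, whole kidney and whole liver was measured on 18 glass oligonucleotide arrays with 2 dyes, 6 arrays per tissue. Every array carried a DBA/2J pool in the Alexa 647 channel and a C57BL/6J pool in the Alexa 555 channel, so strain and dye cannot be told apart for a given spot. A pool combined 10 mice in the case of brain and kidney, and 9 mice in the case of liver. All 6 arrays of a tissue used the same pair of pools, and p-values therefore measure the spread between hybridisations, not between mice. The sources used here state no age, sex or treatment of the mice. A log2 ratio above 0 is read as higher RNA in DBA/2J. This direction is likely from the order of the dyes in the labels but is not stated. As a check of it, Hc, of which DBA/2J carries a null allele, had a log2 ratio of -1.08 ± 0.49 (SD, n = 6 arrays) in liver, and H2-Ea, whose promoter is deleted in C57BL/6J, had 0.83 ± 0.34 in kidney and 0.63 ± 0.35 in liver, where its spot was dim. These are 2 of 4 genes listed for the check. Of the 4, at an adjusted p under 0.05 in limma, 2 were higher and 0 lower in brain. In kidney and in liver, 2 were higher and 1 lower.

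A ribosome has a small subunit, which reads the messenger RNA, and a large subunit, which joins amino acids and passes the growing chain through an exit tunnel. Most of the proteins are needed in equal number, and their messenger RNAs are among the most abundant in most tissues. Many of these messenger RNAs start with a C and a run of pyrimidines, the terminal oligopyrimidine (TOP) tract, through which mTOR signalling and the protein Larp1 control their translation together. Loss of a single copy of several of the genes causes Diamond-Blackfan anaemia in people.

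Promoter windows of RefSeq (assembly GRCm38.p6) were found for 57 of the 69 genes, and the starts of some that the results turn on are shown here to let the reader see which carry a tract at the annotated start. Each run holds 15 bases before and 20 bases from the annotated transcript start, written 5′ to 3′ along the gene. Capitals mark the C at the start with the pyrimidines that follow it, where there are at least 4 of them.
Fau, chr19:6057932-6057966, plus strand: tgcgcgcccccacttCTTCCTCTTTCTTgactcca
Rps21, chr2:180257364-180257398, plus strand: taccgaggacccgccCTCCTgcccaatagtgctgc
Rpl38, chr11:114668565-114668599, plus strand: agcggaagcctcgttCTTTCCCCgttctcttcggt
Rplp2, chr7:141447636-141447670, plus strand: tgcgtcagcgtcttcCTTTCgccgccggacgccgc
Rpl14, chr9:120571502-120571536, plus strand: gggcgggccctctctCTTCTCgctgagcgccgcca
Rps6, chr4:86857348-86857382, minus strand: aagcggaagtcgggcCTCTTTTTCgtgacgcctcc
Rps25, chr9:44407699-44407733, plus strand: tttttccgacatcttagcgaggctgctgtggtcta
Rpl24, chr16:55966260-55966294, plus strand: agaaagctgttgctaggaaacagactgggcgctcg
Rpl39l, chr16:10170213-10170247, plus strand: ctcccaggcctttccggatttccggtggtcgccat

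A tract of this form stood at an annotated start in 12 of the 57 genes (21.05%) and in 813 of all 27025 genes with a window (3.008%). A gene was counted if any of its annotated starts carried the tract. Rps21 and Rpl35a, both counted, also have annotated starts without it, which are not shown. The annotated start can lie a few bases from the start used in a tissue, so a missing tract says only that these letters are not at that position. Among the windows of 300 bases, searched on both strands with motifs counted separately, CCGGAAG, the ETS family motif, was found for 25 of the 57 genes (43.86%, against 9.928% of all genes). GGGCGG, the SP1 motif, was found for 35 (61.4%, against 38.2%).

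The labelled tissues were checked by spot intensity, given as the percentile among all features of the tissue. Snap25 of neurons stood at percentile 98.9 in brain, Umod of the kidney tubule at 99.6 in kidney and Alb of hepatocytes at 99.97 in liver. Aqp2 of the collecting duct went against its tissue, at 88.0 in kidney and 99.3 in liver. The haemoglobin gene Hba-a1, a marker of blood, stood above percentile 99 in all 3 tissues and was lower in DBA/2J in brain (-0.49 ± 0.38) and kidney (-0.67 ± 0.28), with -0.07 ± 0.21 in liver. The other 3 blood markers measured did not pass in brain or kidney, and 1 of them was higher in liver. Of 5 kidney markers, 0 were higher and 3 lower in kidney after loess (median -0.34), beside 19% of all features lower. Of 4 brain markers 0 were higher and 1 lower in brain, and of 5 liver markers 1 was higher and 1 lower in liver. The part of blood and tissue markers in the ratios of the ribosomal protein genes was not tested.

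In brain, 36 of the 69 ribosomal protein genes were higher in DBA/2J, 1 was lower and 32 did not pass the threshold, which is an adjusted p of 0.05 in limma with Benjamini-Hochberg adjustment over all 20218 features. Over all features, 7.31% were higher and 6.16% lower. The median log2 ratio of the 69 genes was 0.37, beside 0.00 for all features, and 63 of 69 means lay above 0. Whole tissue was measured, so fewer cells of a type and less RNA per cell cannot be told apart. Without brain array 1, which stood apart from the others for these genes, 46 were higher and the median was 0.46. The call count also depended on other single arrays, with 23 higher without array 4, 20 without array 5 and 22 without array 6. Shares of all features with an array left out are not given here.

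Fau, which encodes a ubiquitin-like protein fused to the small subunit protein Rps30, had the highest brain ratio. Its log2 ratios on arrays 1 to 6 were 0.13, 1.05, 0.58, 0.81, 1.26 and 1.35. All 6 lay above 0, with array 1 the lowest, and the mean of 0.86 ± 0.46 is a 1.82-fold ratio (adjusted p = 0.0027, limma). Rps25, a small subunit protein that several viral messenger RNAs need for initiation, gave -0.02, 0.81, 0.74, 0.77, 1.09 and 1.04, so array 1 alone lay at about 0 (mean 0.74 ± 0.40, adjusted p = 0.0037). Rpl38, known for its part in the translation of Hox messenger RNAs in the embryo, gave -0.19, 0.92, 0.52, 0.81, 1.12 and 1.23. Here too 5 of 6 arrays were well above 0 and array 1 was below it (mean 0.74 ± 0.52, adjusted p = 0.0093). Rps29, a zinc-binding small subunit protein, was above 0 on all 6 arrays, between 0.17 and 1.12 (mean 0.73 ± 0.35, adjusted p = 0.0023). Rps21 (0.72 ± 0.51), of the small subunit, and Rpl10 (0.67 ± 0.48), which joins the large subunit late in its assembly, completed the 6 highest.

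Rpl39l, the paralogue of the exit tunnel protein Rpl39 that is known for its expression in the testis, was the only ribosomal protein gene lower in brain. Its ratios were -0.40, -0.41, -0.55, -0.14, -0.26 and -0.23, below 0 on every array including array 1 (mean -0.33 ± 0.15, adjusted p = 0.0136). Rpl39 itself went the other way, with -0.05 on array 1 and 0.42 to 1.01 on the others (mean 0.56 ± 0.36, adjusted p = 0.0099). The intensity of Rpl39l stood at percentile 45.4 in brain and that of Rpl39 at 95.9.

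**Figure D1:**
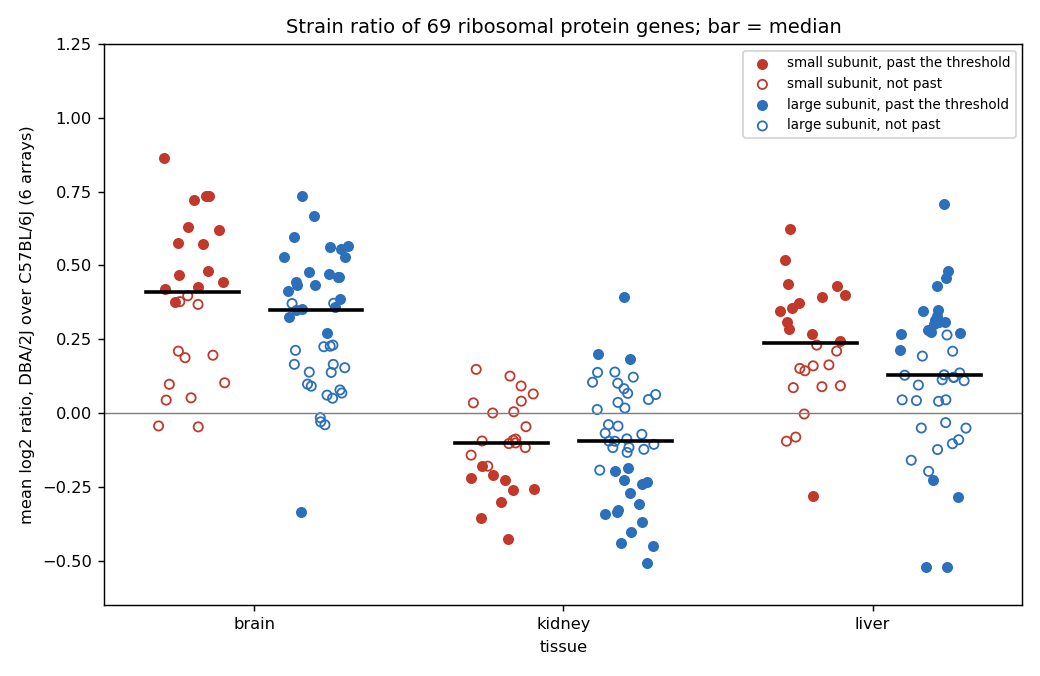
Mean log2 ratio of DBA/2J over C57BL/6J over 6 arrays (vertical axis) for each of the 69 ribosomal protein genes in brain, kidney and liver, small subunit in red and large subunit in blue, filled where the adjusted p was under 0.05; bars are medians. Brain points lie mostly above 0 (63 of 69), liver points less so (53 of 69), and kidney points mostly below 0 (22 of 69 above), a kidney position that turns to a median of 0.66 without loess.

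In liver, 29 genes were higher in DBA/2J, 5 were lower and 35 did not pass, with 10.8% of all features higher and 12% lower. The median was 0.16 and 53 of 69 means lay above 0. Of the 69 genes, 52 lay among the brightest features of liver, by the cut given below for kidney. Of these 52 genes, 48.1% were higher and 5.77% lower. Of the other features as bright, 20.7% were higher and 20.3% lower. Bright features thus passed more often in liver than features as a whole. Rplp1, an acidic protein of the stalk that brings elongation factors to the ribosome, had the highest ratio, with 1.19, 0.71, 0.31, 0.59, 0.91 and 0.54 on arrays 1 to 6. All 6 were above 0 (mean 0.71 ± 0.31, a 1.63-fold ratio, adjusted p = 0.00067). Rps15, a small subunit protein near the decoding site, was above 0 on all 6 arrays, between 0.30 and 1.12 (mean 0.62 ± 0.31, adjusted p = 0.0015). Rps25 ranged from 0.19 to 0.95 (mean 0.52 ± 0.29), Rpl22l1 from 0.17 to 0.63 (0.48 ± 0.17), Rpl19 from 0.25 to 0.80 (0.46 ± 0.19) and Fau from 0.10 to 0.77 (0.44 ± 0.22). Thus each of the 6 highest genes of liver was above 0 on every array.

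The 5 genes lower in liver were Rpl24, Rpl39l, Rpl14, Rps3a1 and Rpl7l1. Rpl24, the large subunit gene that is mutated in the Belly spot and tail mouse, gave -0.13, -0.34, -0.71, -0.47, -0.87 and -0.60, all below 0 (mean -0.52 ± 0.26, a 1.44-fold ratio toward C57BL/6J, adjusted p = 0.0023). Rpl39l was again below 0 on all 6 arrays, from -0.88 to -0.23 (mean -0.52 ± 0.22, adjusted p = 0.0013). Rpl14, a large subunit protein, lay between -0.48 and -0.13 (mean -0.28 ± 0.13, adjusted p = 0.0117). This direction of Rpl14 did not hold under other scalings, with 0.21 without loess and 0.14 with a single loess per array, neither past the threshold. Rps3a1 was below 0 on 5 of 6 arrays (-0.28 ± 0.16) and passed neither without loess nor with a single loess per array. Rpl7l1, a paralogue of Rpl7, was below 0 on all 6 (-0.23 ± 0.07).

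In kidney, 3 genes were higher, 24 were lower and 42 did not pass, with 19.1% of all features higher and 19% lower. The median of the 69 genes was -0.10 after loess. It was 0.66, with 61 genes higher and 2 lower, when arrays were centred on their median without loess. In that setting 32% of all features were higher and 32.9% lower. The sign of the kidney ratios therefore rests on the loess step. All 6 kidney arrays had a correlation between the deposited ratio and spot intensity of 0.615 to 0.716, and 58 of the 69 genes lay among the brightest 10% of features. Without loess, the median of these 58 genes differed from the median of other features of the brightest 10% by -0.16 to 0.05 on the 6 arrays. After loess, 20.7% of the other features of the brightest 10% were higher and 20.2% lower, and among the brightest 1% 20.1% were higher and 39.2% lower. The kidney values below are all values after loess.

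Rpl39l had the lowest kidney ratio, with -0.46, -0.37, -0.40, -0.56, -0.55 and -0.72 on arrays 1 to 6, a narrow range below 0 (mean -0.51 ± 0.13, adjusted p = 8.33e-05). It was also below 0 without loess (-0.53, adjusted p = 0.0013). With the intensity left unrestored it was -0.20 (adjusted p = 0.019, limma) and not the lowest, with Rpl7l1 at -0.47. Rpl27a, of the large subunit, lay between -0.56 and -0.36 (mean -0.45 ± 0.07, adjusted p = 0.00011), and Rpl9, a large subunit protein near the stalk base, between -0.79 and -0.19 (-0.44 ± 0.22). Rps6, the small subunit protein phosphorylated by the S6 kinases, lay between -0.57 and -0.27 (-0.43 ± 0.10). Without loess these 3 genes had ratios above 0, at 0.39, 0.61 and 0.53. Rpl7l1 (-0.40 ± 0.16) and Rpl38 (-0.37 ± 0.19) completed the 6 lowest, with 0.54 for Rpl38 without loess and -0.14 for Rpl7l1 (adjusted p = 0.29, no longer past).

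The 3 genes higher in kidney were Rpl14, Rpl8 and Rpl6, all of the large subunit. Rpl14 gave 0.36, 0.35, 0.52, 0.10, 0.24 and 0.78, above 0 on every array (mean 0.39 ± 0.24, adjusted p = 0.0025). With a single loess per array its mean was 0.19 and did not pass. Rpl8, which lies close to the peptidyl transferase centre, ranged from 0.11 to 0.37 (0.20 ± 0.09), and Rpl6 from 0.08 to 0.33 (0.18 ± 0.09, and -0.03 with a single loess per array). Without array 1, or without array 6, 1 gene was past the threshold in this direction.

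The subunits were compared by their medians, as a description. In brain, 14 of 26 small subunit genes and 22 of 43 large subunit genes were higher, with medians of 0.41 and 0.35. In liver 13 and 16 were higher, with medians of 0.24 and 0.13. In kidney 9 small subunit genes and 15 large subunit genes were lower, with a median of -0.10 for each subunit after loess. The small subunit median minus the large subunit median was above 0 on all 6 liver arrays, from 0.03 on array 1 to 0.14 on array 5. It ranged from 0.00 to 0.27 on the brain arrays and from -0.08 to 0.07 on the kidney arrays. The liver medians differed by 0.11, and the liver means of single genes ran from -0.28 to 0.62 in the small and from -0.52 to 0.71 in the large subunit.

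Array by array, the brain medians over the 69 genes were -0.10, 0.43, 0.30, 0.28, 0.62 and 0.61, with 18 of 69 genes above 0 on array 1 and 59 to 62 on arrays 2 to 6. Array 1 thus stood apart. Over the 69 genes its ratios correlated with those of the other brain arrays by Pearson's r of -0.12 to 0.06, while arrays 2 to 6 correlated with each other by 0.61 to 0.82. These correlations run across genes that share a library and are given as a description. The deposited ratio of array 1 correlated with intensity by 0.592, near the 0.597 of array 3, whose median was 0.30. The brain arrays with the weakest such correlation (0.0999 on array 2, 0.00567 on array 5 and 0.120 on array 6) had the highest medians. Whether this dependence plays a part in the brain ratios was not tested.

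Kidney medians were -0.07, -0.10, -0.21, -0.10, -0.22 and 0.01 after loess, and liver medians were 0.35, 0.18, 0.09, 0.19, 0.12 and 0.09. All 6 liver arrays and 5 of 6 brain arrays therefore had a median above 0. Before loess, the ribosomal protein genes among the brightest 10% of features in brain had medians that differed from those of the other features there by 0.41 to 0.77 on arrays 2 to 6 and by -0.10 on array 1. In liver this difference was 0.09 to 0.46.

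**Figure D2:**
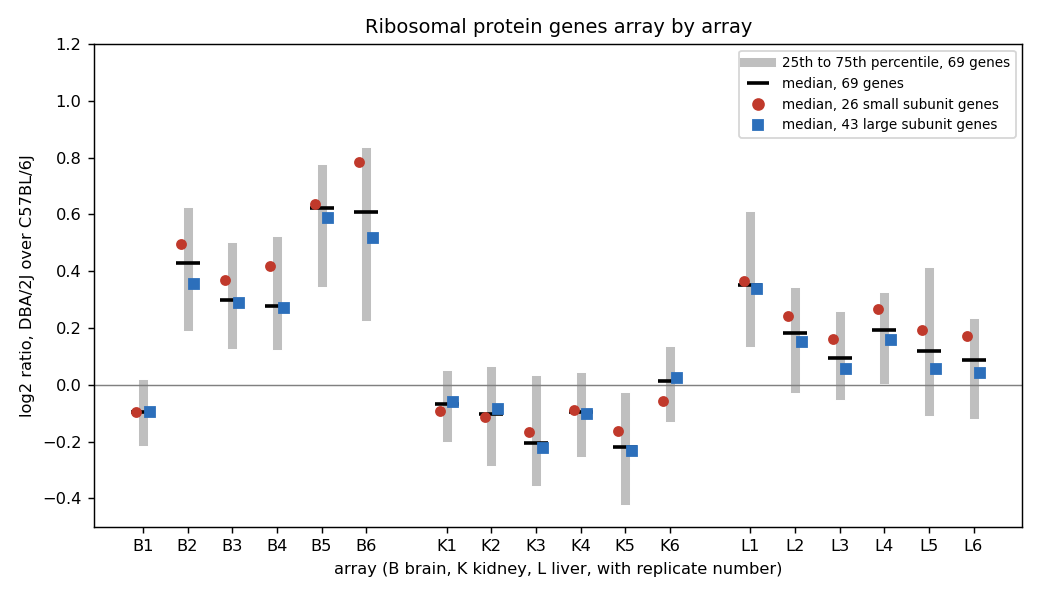
Log2 ratio of DBA/2J over C57BL/6J after loess (vertical axis) on each of the 18 arrays (B brain, K kidney, L liver, with the replicate number), as the median of 69 ribosomal protein genes (black), their 25th to 75th percentile (grey), and the medians of 26 small (red) and 43 large subunit genes (blue). Brain array 1 has a median of -0.10 while brain arrays 2 to 6 lie between 0.28 and 0.62, and on each liver array the red point is above the blue one.

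**Figure D3:**
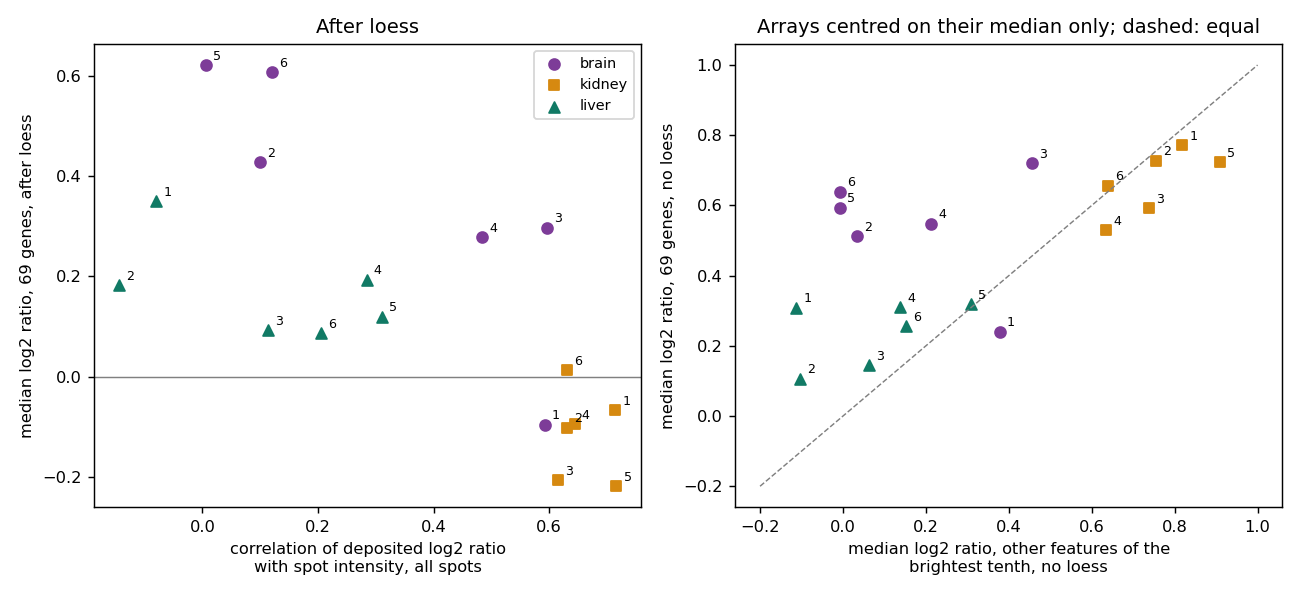
Left, the median log2 ratio of the 69 genes after loess against the correlation of the deposited ratio with spot intensity, 1 point per array with its replicate number. Right, without loess, the median of the 69 genes against the median of other features of the brightest 10%, the dashed line marking equal values: kidney arrays (orange) lie near the line, and brain arrays 2 to 6 (purple) lie above it.

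Across the 3 tissues, 26 of 69 genes (37.7%) were higher in both brain and liver, against 2.92% of all features. Over the 69 genes the brain and liver means correlated by 0.66, as a description, beside 0.44 over all features. After loess 17 genes (24.6%, against 3.1% of features) passed the threshold in opposite directions in some pair of tissues, and 19 (27.5%, against 45.9%) passed in no tissue. The brain and kidney means correlated by -0.10 (0.31 over all features) and the kidney and liver means by -0.01 (0.37). After loess, 12 genes (17.4%, against 0.346% of features) were higher in brain and liver and lower in kidney: Rpl11, Rpl27, Rpl35a, Rpl38, Rpl39, Rpl9, Rplp1, Rps15, Rps19, Rps29, Rps4x and Rps7. All 12 turned above 0 in kidney without loess, with values between 0.48 and 0.80. Rpl39l was the only one of the 69 lower in all 3 tissues (1.45%, against 1.9% of features), a share no larger than that of all features. No gene passed with 1 averaged value per tissue (n = 3, limma, 0% of features called), and at an unadjusted p of 0.05 that test gave 7 higher and 1 lower. The share of all features at an unadjusted p was not computed, here or for the contrasts below.

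Differences between tissues were tested as contrasts in a limma fit of the 18 arrays. The brain ratio exceeded the kidney ratio for 42 of 69 genes (11.1% of all features), 17 of the small and 25 of the large subunit. The reverse was called for 0 genes (10.3% of features), and for 0 at an unadjusted p of 0.05. The median difference was 0.45 after loess and -0.10 without it, where 0 genes passed in this direction and 12 in the other. Rpl38 had the largest difference, 1.11 (SE 0.18, adjusted p = 0.0001), from 0.74 in brain and -0.37 in kidney. Rps29 (0.96, SE 0.14), Rplp1 (0.90, SE 0.15) and Rpl9 (0.89, SE 0.13) followed. For these 3 genes the brain and kidney arrays did not overlap, while for Rpl38 brain array 1 fell within the kidney range. In all, 11 of the 69 genes had no overlap, and the share of all features was not computed.

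The kidney ratio was below the liver ratio for 22 genes (6.99% of features) and above it for Rpl14 (9.33%), by 0.67 (SE 0.11). With a single loess per array the difference of Rpl14 was 0.05 (SE 0.14) and its call was lost. Rplp1 had the largest difference, -1.02 (SE 0.15), followed by Rpl9 (-0.87, SE 0.13), Rps15 (-0.84, SE 0.15) and Rpl38 (-0.68, SE 0.18). The arrays of the tissues did not overlap for any of these 4, nor for 25 of the 69 genes in all. The share of all features without overlap was not computed. Without loess the median difference was 0.33, with 35 genes above and 0 below.

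The brain ratio exceeded the liver ratio for 7 genes, all of the large subunit (4.31% of features), and the reverse was called for 0 (3.22%, and 1 at an unadjusted p of 0.05 in limma). They were Rpl14 (0.70, SE 0.11), Rpl24 (0.66, SE 0.14), Rpl29 (0.62, SE 0.14), Rpl10 (0.56, SE 0.16), Rpl26 (0.54, SE 0.13), Rplp2 (0.44, SE 0.13) and Rpl34 (0.38, SE 0.12). Among the 69 genes the arrays of these tissues did not overlap for Rpl14 alone, and the share of all features was not computed. With a single loess per array 3 of the 7 passed, Rpl24, Rpl26 and Rpl29, and the difference of Rpl14 was 0.32 (SE 0.14). Without loess Rpl10 and Rpl34 did not pass. The count also rested on single arrays, with 19 genes without brain array 1 and 4 without brain array 5, brain array 6, liver array 3 or liver array 6. Without brain array 5, 1 gene was called in the reverse direction.

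**Figure D4:**
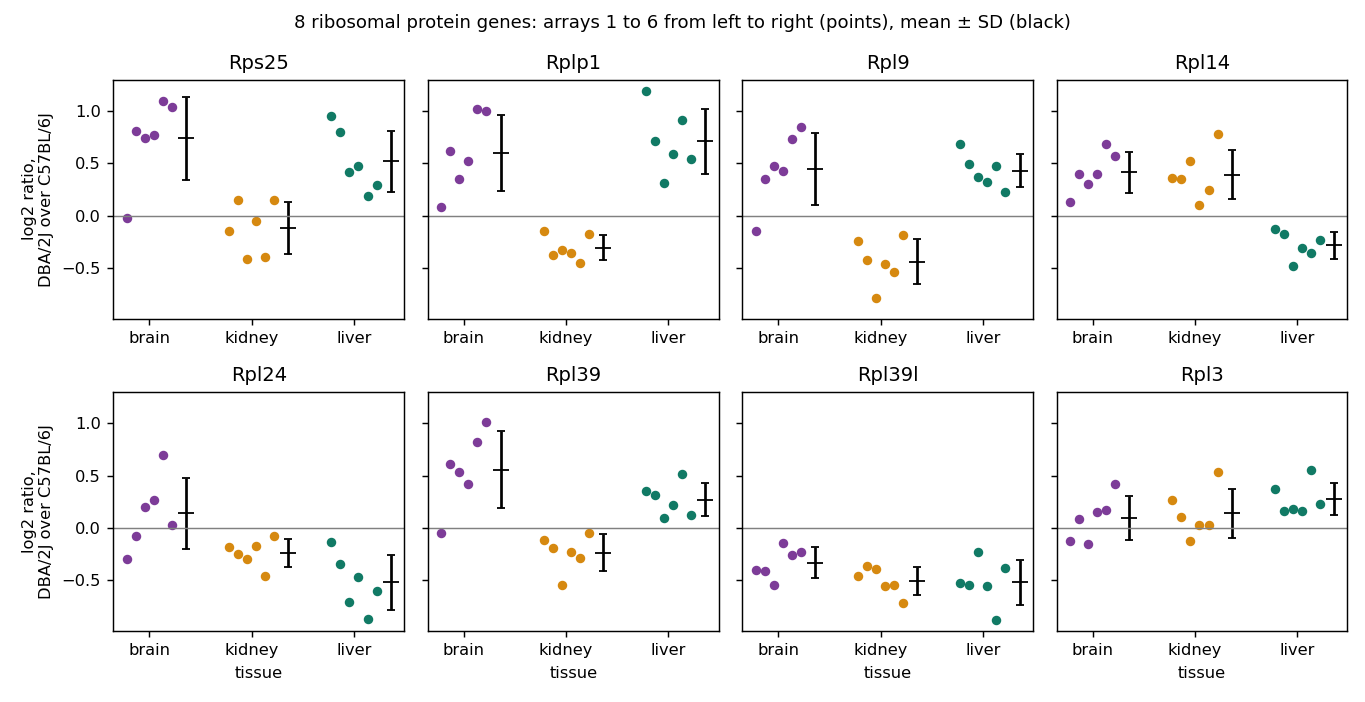
Log2 ratio of DBA/2J over C57BL/6J after loess (vertical axis) of 8 genes in brain, kidney and liver, with arrays 1 to 6 from left to right as points and the mean ± SD in black. Rpl39l lies below 0 on all 18 arrays, Rpl24 is lowest in liver, and Rplp1 and Rpl9 lie above 0 in liver and below 0 in kidney, a kidney position that turns above 0 without loess.

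Of the 3 stalk proteins, 2 were higher in brain and 1 in liver, and 1 was lower in kidney after loess. Rplp0, the stalk's anchor, had a ratio of 0.08 ± 0.16 in brain, with 0.10 ± 0.11 for kidney and -0.09 ± 0.05 for liver, none past the threshold. Rplp1 was higher in brain (0.60 ± 0.37) and liver, and lower in kidney after loess (-0.31, and 0.71 without loess). Rplp2, its partner, was higher in brain (0.57 ± 0.23), above 0 on all 6 arrays between 0.23 and 0.87, with 0.01 ± 0.07 in kidney and 0.13 ± 0.34 in liver. The liver arrays of Rplp2 ran from -0.39 to 0.64, a far wider range than those of Rplp0 (-0.16 to -0.01).

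Rpl5 and Rpl11, which bind the ribosomal RNA 5S and the p53 regulator Mdm2 together, had brain ratios of 0.21 ± 0.29 for Rpl5 (not past) and 0.53 ± 0.36 for Rpl11 (adjusted p = 0.0123). In liver the values were 0.19 ± 0.11 (not past) and 0.27 ± 0.24 (adjusted p = 0.0426). Whether these pairs differ was not tested. Rps19, the gene most often mutated in Diamond-Blackfan anaemia, was higher in brain (0.48 ± 0.40) and liver (0.31 ± 0.19) and lower in kidney after loess (-0.36 ± 0.18, and 0.66 without loess). Among 13 genes known for that anaemia, a group set after the values were seen, 11 were higher in brain and 8 in liver, with medians of 0.46 and 0.27, and 8 were lower in kidney after loess. Over all 69 genes 36 were higher in brain, 29 in liver and 24 lower in kidney.

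Groups by protein size were also set after the values were seen and are given as values. The 6 genes of very small proteins (Fau, Rpl38, Rpl39, Rpl41, Rps28 and Rps29) had a brain median of 0.65, a kidney median of -0.21 after loess and a liver median of 0.35, with 5 of 6 higher in brain and in liver. Protein lengths were not analysed here, so the groups are not complete by size. Rpl39l, the paralogue of Rpl39, was left out of this group and went the other way (-0.33 in brain, -0.51 in kidney, -0.52 in liver). The 6 genes of large proteins (Rpl3, Rpl4, Rpl5, Rpl6, Rplp0 and Rps2) had medians of 0.11, 0.09 and 0.04. None of these 6 passed in brain, where the highest was Rpl5 at 0.21. Rpl3, near the catalytic centre, passed in liver alone of the 3 tissues (0.28 ± 0.16, above 0 on all 6 arrays).

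The genes include 6 paralogues, 5 of them with their partner among the members, and whether a paralogue differs from its partner was not tested. Rpl22l1, which can replace Rpl22 in the ribosome, was higher in brain (0.35 ± 0.26) and liver (0.48 ± 0.17), while Rpl22 gave -0.04 ± 0.14 and 0.09 ± 0.30. Rpl3l, the paralogue of Rpl3 in striated muscle, gave -0.02 ± 0.19 (brain), -0.04 ± 0.26 (kidney) and -0.12 ± 0.20 (liver), none past. Rps27l, a target of p53 whose partner Rps27 was not analysed here, was higher in brain (0.58 ± 0.39) and liver (0.39 ± 0.19). Rps4x, the X-linked gene of a small subunit protein, was higher in brain (0.47 ± 0.32) and liver (0.35 ± 0.17), and Rps4l gave 0.10 ± 0.30 and 0.21 ± 0.16, not past. Rpl7 gave 0.23 ± 0.30, -0.12 ± 0.07 and 0.11 ± 0.23, not past in any tissue, beside a lower Rpl7l1 in kidney and liver. Rps27a, the other ubiquitin fusion, was not analysed here.

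For genes with 2 spots the mean can hide unlike spots. The brighter spot of Rps12, a small subunit protein, gave 0.67 ± 0.33 in brain, with -0.18 ± 0.21 for kidney and 0.22 ± 0.10 for liver, and the dimmer spot -0.28 ± 0.15, -0.33 ± 0.13 and -0.23 ± 0.27. The spots of Rps12 therefore had opposite signs in brain and liver. The brighter spot of Rps18 gave 0.34 ± 0.20 in brain and the dimmer one -0.15 ± 0.17. For Rpl27a the brighter spot gave 0.58 ± 0.19 in liver and the dimmer one -0.34 ± 0.08, while both were below 0 in kidney (-0.40 ± 0.11 and -0.50 ± 0.18). Rpsa, the laminin receptor gene of the small subunit, gave 0.65 ± 0.46 and -0.33 ± 0.17 in liver, but 1 of its spots was at the top of the scanner's scale on 3 liver arrays, so the value of that spot is not exact. The spots of Rpl35a had like signs in each tissue, with 0.53 and 0.43 for brain, -0.43 and -0.11 for kidney, and 0.39 and 0.30 for liver. Ribosomal protein genes have many processed pseudogenes, and probe sequences were not analysed here, so which copies a spot detects was not tested.

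By promoter, the 12 genes with a tract at the annotated start had a median of 0.44 in brain, a kidney median of 0.02 and a liver median of 0.25, with 9 higher in brain, 1 higher and 3 lower in kidney after loess, and 7 higher and 1 lower (Rpl14) in liver. The 45 with a window and no tract there had medians of 0.35, -0.12 and 0.13, with 22 higher and 1 lower in brain, 1 higher and 18 lower in kidney after loess, and 16 higher and 4 lower in liver. The 12 without a window had 0.29, -0.05 and 0.24. The ranges overlapped widely, from 0.06 to 0.86 in brain with the tract and from -0.33 to 0.74 without it. Of the sequences shown, Fau has a tract and Rps25 has none at the annotated start, and both were among the 6 highest genes of brain and of liver.

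Other genes of the translation machinery were read from lists beside these. Of 72 mitochondrial ribosomal protein genes, 13 were higher and 1 lower in brain (median 0.14). The counts were 13 and 8 for kidney (0.05), and for liver 10 and 4 (0.07). Mrps14 (0.69 ± 0.24) was the highest of them in brain and Mrpl38 (0.94 ± 0.33) in kidney. Of 48 translation factors, 2 were higher and 1 lower in brain, with 6 and 12 for kidney and 5 and 8 for liver, and medians of 0.06, 0.03 and -0.06. Naca, which binds nascent chains at the ribosome, was higher in brain (0.38 ± 0.28), and Eif6, which keeps the large subunit from joining the small one, was lower in kidney (-0.62 ± 0.14).

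Of 76 ribosome biogenesis factors, 6 were higher and 3 lower in brain, with 17 and 14 for kidney and 5 and 7 for liver, and medians of 0.04, 0.04 and -0.03. These counts, like the others of these lists, are to be read against the shares of all features higher and lower, which for brain were 7.31% and 6.16%, for kidney 19.1% and 19%, and for liver 10.8% and 12%. The kidney counts of the biogenesis factors lay near those shares. Of 31 proteasome subunits, another large complex of abundant proteins, 3 were higher in brain (median 0.09), 4 were higher and 2 lower in kidney (0.00) and 4 were lower in liver (-0.04). Of 18 genes of the mTOR pathway and its S6 kinases, 1 was lower in brain (median -0.06), 5 were higher and 2 lower in kidney (0.09), and 2 were higher and 1 lower in liver (-0.03). Rps6kb2, an S6 kinase, was lower in brain (-0.43 ± 0.13) and kidney (-0.32 ± 0.12). Mtor was higher in kidney (0.77 ± 0.22) and gave -0.17 ± 0.22 in brain and -0.14 ± 0.14 in liver, neither past the threshold. Eif4ebp1, an inhibitor of cap-dependent initiation controlled by mTOR, was higher in liver (0.65 ± 0.19). The brain median of the cytosolic ribosomal protein genes, 0.37, was above that of each of these lists.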

How the data were processed

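Total RNA was hybridised to 18 arrays. The deposited values are log2 ratios, read here as DBA/2J over C57BL/6J. Quantification with Spot and print-tip lowess in limma are recorded per the labels, with versions and any background correction not given in the sources used here. Over 21765 spots, 100.0% of ratios equalled a quotient of 2 whole numbers (tolerance 1e-12), and array medians lay between -1.65 and 0.16, so they were treated as raw ratios, unlike in the planned design. Another 1275 spots were 0 on every array and left out. Intensities were recovered from the ratios by continued fractions, with the common factor estimated from the other arrays. On simulated spots the factor was exact for 69.6 to 70.5%. Ratios were normalised per array by print-tip loess against fitted intensity (limma 3.58.1, span 0.3, 4 iterations, 48 blocks). Spots with the same single symbol, updated by Entrez identifier, were averaged. Means were tested against 0 with lmFit and eBayes in each tissue (6 arrays), differences between tissues in a fit of 18 arrays, with Benjamini-Hochberg adjustment over 20218 features. On simulated data 82.7 to 89.8% of ratios of 0.5 and 99.0% of ratios of 1 (log2) were called. These shares are of simulated features, not of the 69 genes, whose median SD in brain was 0.30 beside 0.20 for all features. The number of arrays limits the precision.

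The members and lists were chosen with earlier results of these data known. Named genes were the 6 highest and 6 lowest per tissue and for each tissue contrast the 4 largest differences in either direction among those past the threshold, members past it in opposite directions, stalk proteins, ubiquitin fusions, paralogues with their partners, genes with 2 spots, and the 2 highest and 2 lowest of each other list. Alternatives were other scalings, brighter features or spots, 1 fit of all arrays, a replicate block, each array left out and, added after seeing the data, leaving out features at the top of the scale and fitting loess without the members. Promoter sequences are from RefSeq.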

Additional observations from a re-analysis of the deposited data

Results flagged for a closer look

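For the 44 genes named by rule (132 sets of 6 arrays) and for the members' median and the subunit gap in each tissue (6 sets), 138 sets in all, an array far from the others was looked for, and 9 sets had one, where chance gives about 1 in 20. Brain array 1 was the distant array for 6 genes. There Rpl11 gave -0.20 (0.56 to 0.81 on the other arrays), Rpl29 gave -0.046 (0.47 to 0.70), Rps19 gave -0.29 (0.51 to 0.88), Rps21 gave -0.21 (0.67 to 1.19), Rps25 gave -0.024 (0.74 to 1.09) and Rps7 gave -0.23 (0.57 to 0.96). Rpl8 gave 0.37 on kidney array 6 (0.11 to 0.20 on the others), Rplp0 gave 0.32 on kidney array 5 (0.04 to 0.08), and Rps3a1 gave 0.0050 on liver array 1 (-0.44 to -0.28).

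The strain ratio differed between tissues by the contrast test for 13 named differences. Brain minus kidney was 1.11 for Rpl38, 0.96 for Rps29, 0.90 for Rplp1 and 0.89 for Rpl9. Brain minus liver was 0.70 for Rpl14, 0.66 for Rpl24, 0.62 for Rpl29 and 0.56 for Rpl10. Kidney minus liver was 0.67 for Rpl14, -1.02 for Rplp1, -0.87 for Rpl9, -0.84 for Rps15 and -0.68 for Rpl38. The differences that involve kidney are values after loess, and that of Rpl14 between kidney and liver was 0.05 with 1 loess per array.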

How the results depend on the processing

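Brain and liver medians kept their sign under every alternative run. Of named genes past the threshold, brain 17 of 27, kidney 1 of 24 and liver 16 of 25 kept direction and call under all of them, and 25, 2 and 20 under those that use all arrays. Without loess the kidney median was 0.66 (61 higher, 2 lower, beside 32% and 32.9% of all features). Brain minus kidney then had a median of -0.10 (0 higher, 12 lower) and kidney minus liver 0.33 (35 higher, 0 lower). In the same setting the average of 3 tissues was 0.48, and 3 genes were lower in liver, beside 13.2% of all features. Kidney ratios without loess were above 0 for Rpl11 (0.65), Rpl24 (0.75), Rpl26 (0.34), Rpl27 (0.56), Rpl27a (0.39), Rpl34 (0.45), Rpl35a (0.61), Rpl38 (0.54), Rpl39 (0.55), Rpl9 (0.61), Rplp1 (0.71), Rps15 (0.80), Rps19 (0.66), Rps24 (0.52), Rps29 (0.63), Rps4x (0.48), Rps6 (0.53) and Rps7 (0.59), and Rpl14 had 0.21 in liver. With 1 loess per array, kidney had 1 higher, liver 3 lower, brain minus liver 3 higher, kidney minus liver 0 higher and the average of tissues 1 lower, Rpl6 had -0.025 in kidney and Rpl14 0.14 in liver. In that setting 15.3% of all features were higher in kidney and 13.5% lower in liver. With the intensity left unrestored, kidney had 6 higher (26.1% of all features), brain minus kidney 1 lower and kidney minus liver 2 higher. A single fit of 18 arrays gave 14 of 69 lower in kidney, beside 17.6% of all features. Without the dimmer features, or with the brightest 25% only, brain had 0 lower, since Rpl39l is left out. The brightest 25% had 3 lower in liver, beside 17.8% of the features kept. With the brightest spot per gene the small subunit exceeded the large by 0.15 in liver. Apart from loess, the causes of these shifts were not tested.

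Leaving out each array in turn gave 20 to 46 higher and 1 lower in brain (median 0.29 to 0.46, small minus large 0.05 to 0.11), 1 to 4 higher and 19 to 23 lower in kidney (median -0.12 to -0.07, small minus large -0.04 to 0.01) and 20 to 29 higher and 4 to 5 lower in liver (median 0.15 to 0.20, small minus large 0.08 to 0.12). Brain minus kidney had 36 to 47 higher and 0 lower (median 0.40 to 0.53), brain minus liver 4 to 19 higher and 0 to 1 lower (median 0.12 to 0.24), and kidney minus liver 1 higher and 21 to 23 lower (median -0.27 to -0.22). For these counts the shares of all features are not given.

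With the replicate number as a block, brain minus kidney had 39 higher, brain minus liver 5 higher, and kidney minus liver 1 higher and 22 lower. Same-numbered arrays of different tissues correlated by -0.23 to 0.16, and at most 3 of 6 correlated best with their own number, so the numbers are not taken as pairs.

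The limits are those of the arrays: a dye fixed to a strain, a single pair of pools per tissue, and intensities rebuilt from ratios. Spots at the top of the scanner's scale concerned Rps16 and Rpsa, and leaving such features out moved no count by more than 1.5 times.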
